A study of Sus scrofa with 4 samples.

Results

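Autophagy is the pathway by which a cell wraps part of its cytoplasm in a double membrane, the autophagosome, and delivers it to the lysosome for breakdown. A kinase complex around ULK1 starts the process, a lipid kinase complex around BECN1 marks the membrane, and the conjugation enzymes ATG7, ATG3 and the ATG12-ATG5 pair attach small ubiquitin-like proteins of the ATG8 family (the LC3 and GABARAP proteins) to it. Cargo receptors such as SQSTM1, also called p62, hold on to both the cargo and the membrane-bound ATG8 proteins, and SQSTM1 is itself broken down with its cargo. Most of this regulation acts on proteins, so that mRNA levels do not measure how much cargo is degraded. A mature oocyte makes little new RNA and lives on stored mRNA.

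The core genes of autophagy described here are 10 genes, chosen by gene symbol, namely ULK1, BECN1, ATG7, ATG3, ATG5, ATG12, MAP1LC3A, MAP1LC3B, GABARAP and SQSTM1. All 10 were found, each as 1 row, among the 16050 genes with values in the table. The libraries came from porcine (Sus scrofa) oocytes at metaphase II, the stage at which a mature oocyte waits for fertilization, after maturation in vitro for 44 h. Control oocytes had no added Cu, and Cu oocytes were matured with 25 μg/mL Cu added to the medium as copper sulfate, the dose and time being those of the methods. The question was which transcripts differ when oocytes mature with excess Cu. Each library was amplified by Smart-seq2 from 3 oocytes lysed together, and 4 libraries were analysed, Control 1 and 2 and Cu 1 and 3. The oocytes were collected from slaughterhouse ovaries, no source says whether the libraries came from separate cultures or animals, and p-values therefore measure the spread between these libraries, which may be technical.

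Levels are given as FPKM, a measure that corrects the number of fragments for transcript length and library total, so genes can be compared with each other per length, but the number of reads behind a value is not known. Differences are log2 fold changes of FPKM + 1, Cu minus Control, for the 8541 genes that reached 1 FPKM in 2 or more libraries, tested with limma and adjusted over all of them by the Benjamini-Hochberg method. Values of a group are given in the order Control 1, Control 2 and Cu 1, Cu 3, and the groups, and so the direction of every difference, are those of the labels. The added 1 makes the differences of weakly expressed genes smaller. Cu 1 stood apart, with 9364 genes at 1 FPKM or more against 7923 to 8162 in the other libraries, and its correlation with the other libraries across genes was 0.918 to 0.923 against 0.959 to 0.976 among the rest. Of 13 oocyte markers with values, 12 or 13 reached 1 FPKM in each library, and their summed level was 2255 and 4703 FPKM in the Control libraries against 4683 and 3841 in those with Cu. Of 14 markers of the surrounding cumulus and granulosa cells, 10 had values and 1 or 2 of them reached 1 FPKM in each library. Their summed level was 11.8 and 18.1 FPKM in the Control libraries against 16.5 and 14.9 in those with Cu, almost all of it from FST. AMH was listed at 0 in all 4 libraries and PTX3 did not exceed 0.10 FPKM. Metallothionein genes, which many cells raise in response to metals, differed in direction. MT-2B, the most abundant of them and named after its values were seen, had 1512 and 1238 FPKM in the Control libraries against 2830 and 2816 in those with Cu, a log2 fold change of 1.04 (unadjusted p = 0.0044, limma adjusted p = 0.631), and the authors' means were 2206 FPKM for Control and 2393 FPKM for Cu. MT1A had 5.97 and 7.0 FPKM in the Control libraries against 3.31 and 4.44 in those with Cu, while MT3 had 8.10 and 1.91 FPKM in the Control libraries against 19.6 and 9.87 in those with Cu. Genes of the respiratory chain and ATP synthase, also named after their values were seen, bear on the labels as well. ATP5PF, a subunit of ATP synthase, had 118.9 and 86.0 FPKM in the Control libraries against 309 and 771 in those labelled Cu, and NDUFAB1, of complex I, had 5.46 and 5.59 against 312 and 33.9. The paper describes these genes as lower in its Cu-exposed oocytes, by sequencing and by quantitative PCR. It also reports more genes raised than lowered by Cu. As labelled here, 477 genes were higher and 122 lower in Cu at an unadjusted p of 0.05 or less from limma, a split that depended on scaling. The direction of the labels in this table therefore carries a doubt that was not settled, and it extends to every direction given here.

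The clearest difference among the core genes was in MAP1LC3B, an LC3 protein widely used as the marker of autophagosomes, which was 3.03-fold higher in the mean of the Cu libraries. MAP1LC3A, its weakly expressed relative, was also higher in both Cu libraries, and ATG12 was lower in both. The authors' means, which include a further library of each group, gave a smaller ratio of Cu to Control for MAP1LC3B, 1.87, and 0.883 for ATG12, so both differences depend on which libraries are averaged. The other tested members either overlapped between the groups or, for ATG5, were separated by a small margin. No member had an adjusted p of 0.05 or less, and neither did any of the 8541 tested genes, so 0% of the background was called, with 599 genes at an unadjusted p of 0.05 or less. Among the 9 tested members, 2 were higher at an unadjusted p of 0.05 or less, against 5.58% of all tested genes, and 1 was lower, against 1.43%. The groups were separated with Cu higher in 2 of the 9, against 25.4% of all tested genes, and with Cu lower in 2 of the 9, against 13.4%. The median log2 fold change of the 9 was 0.42, beside 0.16 for all tested genes, and without Cu 1 it was 0.027 beside 0.0023. Leaving out Cu 1 or Cu 3 left 1 Cu library, which the fit assumes to vary as the Control libraries do. Without Cu 1, limma gave 186 genes past the adjusted limit of 0.05, 1 of them a member, MAP1LC3B. Without Cu 3 it gave 1755, 4 of them members, namely MAP1LC3A, MAP1LC3B, ATG12 and GABARAP. With 3 oocytes pooled in each library, a change in every oocyte cannot be told apart from a larger change in some of them. An exact two-sided permutation test of 2 libraries against 2 cannot give a p below 0.33.

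**Figure D1:**
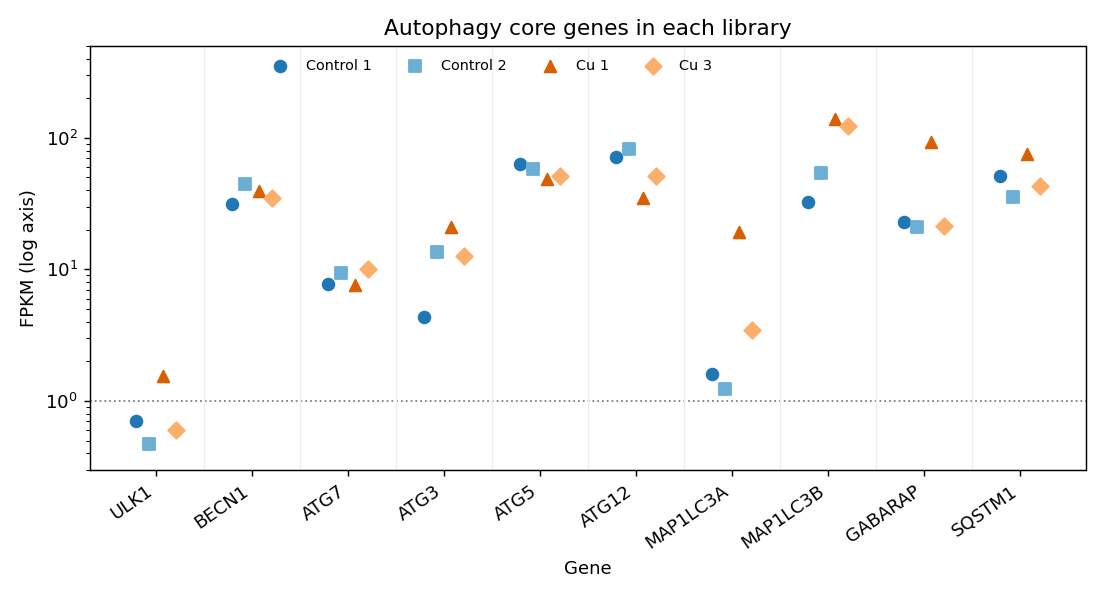
FPKM (log axis) of the 10 core genes in each of the 4 libraries, with a dotted line at 1 FPKM, and 1 point per library without error bars. MAP1LC3B sits at 122 and 139 FPKM in the Cu libraries against 32.6 and 53.7 in Control, ATG12 lies lower in Cu, and for GABARAP and MAP1LC3A Cu 1 is far above Cu 3.

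ULK1, the kinase that receives nutrient and energy signals and starts autophagosome formation, was the weakest of the 10 genes in every library. Its gene (identifier 100151990) lies at chr14:23423693-23448130 of Sscrofa11.1. It had 0.70 and 0.47 FPKM in the Control libraries against 1.56 and 0.60 in those with Cu, so Cu 1 was the highest and Cu 3 lay between the Control libraries. ULK1 reached 1 FPKM in 1 library and did not enter the test. Without the filter on low values its log2 fold change was 0.36 (standard error 0.33, limma adjusted p = 0.818 over 15559 genes). The partners of ULK1 were more abundant. ATG101, which stabilizes the complex, had 7.59 and 7.97 FPKM in the Control libraries against 28.5 and 9.37 in those with Cu. RB1CC1, the scaffold of the complex, had 9.05 and 9.53 FPKM in the Control libraries against 13 and 10.3 in those with Cu. The log2 fold changes of ATG101 and RB1CC1 were 1.0 and 0.29 with adjusted p of 0.730 and 0.855 from limma, and those of the related kinase ULK2 and of ATG13 were 0.21 and 0.11. In 3 of these 4 genes, all but ATG13, the Cu values exceeded every Control value, as in 25.4% of all tested genes. An unadjusted p of 0.05 or less was reached by 0 of the 4, beside 5.58% of all tested genes higher and 1.43% lower.

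BECN1, the scaffold of the class III phosphatidylinositol 3-kinase complex, had nearly the same mean in both groups, 38.2 FPKM in Control and 37.2 FPKM in Cu. The gene (identifier 733576) lies at chr12:20041914-20054249. It had 31.6 and 44.8 FPKM in the Control libraries against 39.7 and 34.7 in those with Cu, with both Cu values inside the range of the Control values. The log2 fold change was -0.019 with a 95% interval from -0.83 to 0.80 (limma adjusted p = 0.992), and it was 0.23 without Control 2 and 0.076 without Cu 3. The interval still holds changes of more than 1.5 times in either direction. The catalytic subunit PIK3C3 was weak beside it, with 1.67 to 3.08 FPKM over the 4 libraries and a log2 fold change of -0.21, and PIK3R4, the regulatory subunit, had 3.04 to 6.27 FPKM and 0.46. ATG14, which directs the complex to sites of autophagosome formation, had 11.2 to 20.3 FPKM and a log2 fold change of 0.28, and UVRAG, which takes its place in a second complex, had 0.98 to 2.23 FPKM and 0.21. Over the 7 tested genes of this complex and its regulators 4 were higher and 3 lower, with a median log2 fold change of 0.032. Over all tested genes 64.3% were higher, with a median of 0.16. None of the 7 had an unadjusted p of 0.05 or less, beside 5.58% of all tested genes higher and 1.43% lower at this limit.

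ATG7 activates both ATG12 and the ATG8 proteins, and ATG3 passes the ATG8 proteins on to the membrane lipid. ATG7 (identifier 100462749, chr13:67301756-67699141) had 7.74 and 9.36 FPKM in the Control libraries against 7.56 and 10.1 in those with Cu, so the Cu libraries lay on either side of the Control libraries. Its log2 fold change was 0.033 (95% interval -0.86 to 0.93), and the sign turned under 3 scalings of the libraries, with -0.20 for upper-quartile scaling, -0.25 for quantile normalization and -0.18 for median-of-ratios scaling. The sign also turned without Control 1, with -0.089, and without Cu 3, with -0.15. ATG3 (identifier 100157190, chr13:147279110-147309597) had 4.37 and 13.7 FPKM in the Control libraries against 21.0 and 12.6 in those with Cu. The Control libraries differed from each other 3.12-fold, and Cu 3 was below Control 2. The log2 fold change of ATG3 was 0.96 (standard error 0.57, limma adjusted p = 0.75), and it ranged from 0.24 without Control 1 to 1.69 without Control 2.

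ATG12 and ATG5 are joined to each other by a covalent bond, and the joined pair, held by ATG16L1, acts as the ligase that places ATG8 proteins on the membrane. In the Control libraries they were the highest and the next highest of the 10 genes, and their values did not overlap with each other or with those of the other members. ATG12 (identifier 100462745, chr2:119948443-119965702) had 71.3 and 82.7 FPKM in the Control libraries against 35.2 and 51.0 in those with Cu. Every Cu value was below every Control value, and the means were 77 ± 8.07 FPKM in Control and 43.1 ± 11.2 FPKM in Cu (SD, n = 2 each). The log2 fold change was -0.84 (standard error 0.33, 95% interval -1.65 to -0.039), with an unadjusted p of 0.043 and limma's adjusted p of 0.677. Relative to the median of all tested genes it was -1.0. The direction held in all 11 alternatives, from -0.58 without Cu 1 to -1.10 without Cu 3, and the adjusted p ranged from 0.016, without Cu 3, to 1. The unadjusted p was 0.05 or less in 7 of the 11 and was 0.056 without the variance trend, 0.067 without Cu 1, 0.15 without Control 1 and 0.25 without Control 2. The authors also gave a mean of each group, which includes a library not analysed here. For ATG12 it was 64.4 FPKM in Control, below both Control libraries, and 56.9 FPKM in Cu, above both Cu libraries. The further Control library was therefore lower than both Control libraries, and the further Cu library higher than both Cu libraries. The separation of the groups is shown for the 4 libraries only.

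ATG5 (identifier 100739102, chr1:72343950-72520402) varied little across the libraries. It had 62.9 and 58.4 FPKM in the Control libraries against 48.4 and 51.2 in those with Cu. The groups did not overlap, and the mean of Control was 1.22 times that of Cu. The log2 fold change was -0.28 (standard error 0.29, limma adjusted p = 0.836), with -0.33 to -0.23 when each library was left out in turn. The ratio of ATG12 to ATG5 on the FPKM scale was 1.13 and 1.42 in Control 1 and 2 and 0.727 and 0.997 in Cu 1 and 3. Among these 4 libraries, those of Control held more ATG12 than ATG5 mRNA per length and those with Cu did not. The authors' means, which include a further library of each group, did not show this. For Control they were 64.4 FPKM for ATG12 and 59.1 FPKM for ATG5, and for Cu 56.9 and 50.7 FPKM, with ATG12 higher in both groups. The summed level of ATG3, ATG5, ATG7 and ATG12 was 146 and 164 FPKM in the Control libraries against 112 and 125 in those with Cu. The authors' means of ATG3 and ATG7 were higher in Cu, with 8.46 and 7.80 FPKM for Control against 17.2 and 10.5 FPKM for Cu.

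None of the remaining conjugation genes was separated with Cu lower, as ATG12 was, a separation seen in 13.4% of all tested genes. ATG16L1, the partner that brings the ATG12-ATG5 pair to the membrane, had 11.3 and 15.6 FPKM in the Control libraries against 25.7 and 11.9 in those with Cu, with a log2 fold change of 0.38. ATG10, which transfers ATG12 to ATG5, stayed between 0.17 and 0.93 FPKM and was not tested, and neither was ATG16L2 at 0.32 FPKM or less. The ATG4 proteases, which trim ATG8 proteins before they are attached and release them afterwards, were led by ATG4A with 234 and 247 FPKM in the Control libraries against 310 and 186 in those with Cu. ATG4B had 13.2 to 28.2 FPKM, ATG4C 0.63 to 2.71 FPKM and ATG4D 3.96 to 8.92 FPKM. Of the 5 tested genes of this list 4 were higher and 1 lower, beside 64.3% of all tested genes that were higher. In 1 of the 5, ATG4C, the Cu values exceeded every Control value, as in 25.4% of all tested genes. None of the 5 had an unadjusted p of 0.05 or less, beside 5.58% of all tested genes higher and 1.43% lower at this limit.

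MAP1LC3B (identifier 100462754, chr6:1919879-1941069) had 32.6 and 53.7 FPKM in the Control libraries against 139 and 122 in those with Cu. Both Cu values were more than 2 times the higher Control value, and the Cu libraries were closer to each other than the Control libraries were. The means were 43.1 ± 14.9 FPKM in Control and 130 ± 11.5 FPKM in Cu (SD, n = 2 each). The log2 difference was 1.61 (standard error 0.35, 95% interval 0.76 to 2.47), or 1.45 relative to the median of all tested genes, with an unadjusted p of 0.0036 that ranked 37 among the 8541 genes and limma's adjusted p of 0.631. It stayed between 1.26 and 1.97 with each library left out in turn and between 1.35 and 1.64 under the other settings. The unadjusted p was 0.05 or less in 10 of 11 alternatives, all but the fit without Control 1 with 0.0505, and the adjusted p was 0.028 without Cu 1 and 0.0022 without Cu 3, within a range from 0.0022 to 1. In the Control libraries MAP1LC3B was above 78.3% and 84.0% of all tested genes, and in the Cu libraries above 92.0% and 91.9%. It was below ATG12 and ATG5 in Control, where it overlapped with SQSTM1 and BECN1, and was the highest of the 10 genes in Cu, where it overlapped with none. The authors' mean was 66.4 FPKM for Control, above both Control libraries, and 124 FPKM for Cu, a ratio of 1.87. The further Control library in that mean was therefore higher than both Control libraries analysed here. The separation of the groups is shown for the 4 libraries only.

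MAP1LC3A (identifier 100322893, chr17:37957830-37959505) was close to the filter limit in Control and differed widely between the Cu libraries. It had 1.59 and 1.24 FPKM in the Control libraries against 19.4 and 3.46 in those with Cu. The groups did not overlap, but Cu 1 was 5.59 times Cu 3. Its log2 difference was 1.98 (standard error 0.72, 95% interval 0.21 to 3.76), with an unadjusted p of 0.034 and limma's adjusted p of 0.656. It was 0.89 without Cu 1 and 3.08 without Cu 3, and the adjusted p ranged from 6.6e-05, without Cu 3, to 1. The unadjusted p was 0.05 or less in 8 of 11 alternatives and was 0.072 without the filter on low values, 0.089 without Control 1 and 0.12 without Control 2. The authors' means were 1.10 FPKM for Control and 8.55 FPKM for Cu.

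GABARAP (identifier 100462752, chr12:52596130-52598166), from the other branch of the ATG8 family, was high in Cu 1 but not in Cu 3. It had 23.0 and 20.9 FPKM in the Control libraries against 93.2 and 21.5 in those with Cu, with Cu 3 between the Control libraries. Among the 4 libraries its log2 difference of 1.01 (standard error 0.67, limma adjusted p = 0.776) therefore rested on Cu 1. The difference was -0.026 without Cu 1 and 2.04 without Cu 3. The authors' means, which include a further library of each group, were 23.9 FPKM for Control and 55.9 FPKM for Cu. GABARAP and MAP1LC3A have the shortest genes of the 10, spanning 2037 and 1676 bases, and the largest ratios of Cu 1 to Cu 3, 4.34 and 5.59, while in the other members that ratio was 0.690 to 2.60. Over all tested genes, the 452 with spans under 3000 bases had a median log2 difference of 0.69 between Cu 1 and Cu 3, beside 0.28 for the 8089 longer genes. The groups were separated with Cu higher in 44.2% of the shorter genes and 24.3% of the longer ones. Their median log2 fold changes, Cu minus Control, were 0.61 and 0.15. The part of gene span in the values of GABARAP and MAP1LC3A was not tested.

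GABARAPL2 dominated the ATG8 family and was similar in all libraries, with 304 and 246 FPKM in the Control libraries against 301 and 329 in those with Cu. The log2 difference was 0.20 (standard error 0.27, limma adjusted p = 0.876). The authors' means of GABARAPL2, which include a further library of each group, went the other way, with 332 FPKM for Control and 310 FPKM for Cu. GABARAPL1 did not exceed 0.36 FPKM, and MAP1LC3C was listed at 0 in 3 libraries and at 0.05 FPKM in Cu 3. Summed over the 6 genes, the family had 361 and 322 FPKM in the Control libraries against 552 and 476 in those with Cu. This sum covers the 4 libraries only, and its largest part, GABARAPL2, was lower in Cu in the authors' means. MAP1LC3B made up 9.02% and 16.7% of that sum in Control and 25.1% and 25.7% in Cu. The genes of the family are similar in sequence, and the counting may have split reads among them.

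**Figure D2:**
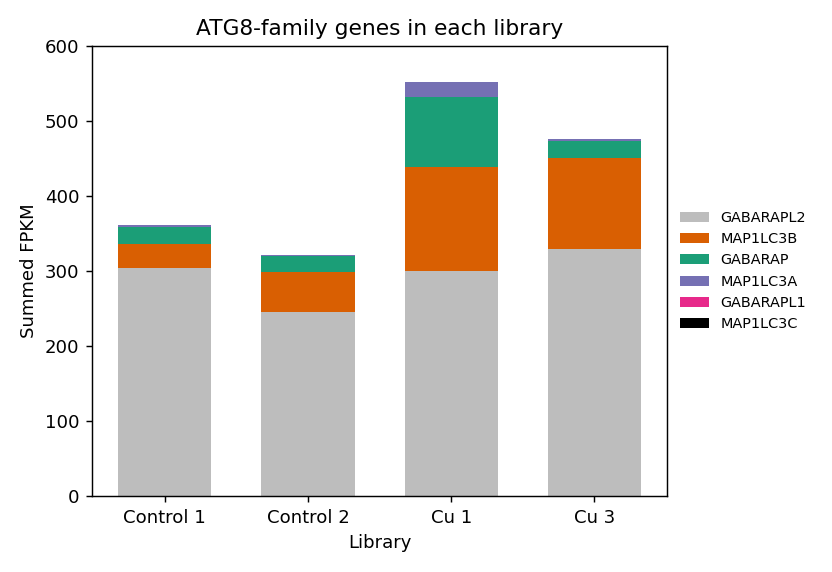
Summed FPKM of the 6 ATG8-family genes in each library, stacked by gene, with no error bars since each bar is 1 library. The GABARAPL2 part lies between 246 and 329 FPKM in all 4 libraries, and the MAP1LC3B part is 32.6 and 53.7 FPKM in the Control libraries against 139 and 122 in those with Cu.

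SQSTM1 (identifier 100518718, chr2:78752768-78763998) had 50.9 and 35.2 FPKM in the Control libraries against 74.8 and 43.2 in those with Cu. Cu 1 was the highest, and Cu 3 lay between the Control libraries. Its log2 difference was 0.42 (standard error 0.40, 95% interval -0.55 to 1.38, limma adjusted p = 0.819), with 0.027 without Cu 1 and 0.81 without Cu 3. Among the other receptors TAX1BP1 and SEC62, a receptor for endoplasmic reticulum named after its values were seen, were the most abundant. TAX1BP1 had 478 and 466 FPKM in the Control libraries against 369 and 375 in those with Cu. The log2 difference was -0.34 (standard error 0.24, limma adjusted p = 0.779), with both Cu libraries below both Control libraries. The authors' mean of TAX1BP1 for Cu, 408 FPKM, which includes a library not analysed here, lay above both Cu libraries. Their mean for Control was 486 FPKM. SEC62 had 393 and 355 FPKM in the Control libraries against 456 and 397 in those with Cu, with a log2 difference of 0.19 (standard error 0.25, limma adjusted p = 0.879). CALCOCO2 had 9.77 to 17.5 FPKM, OPTN 5.61 to 12.1 FPKM and NBR1 2.75 to 3.83 FPKM, and in each of them the groups overlapped.

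**Figure D3:**
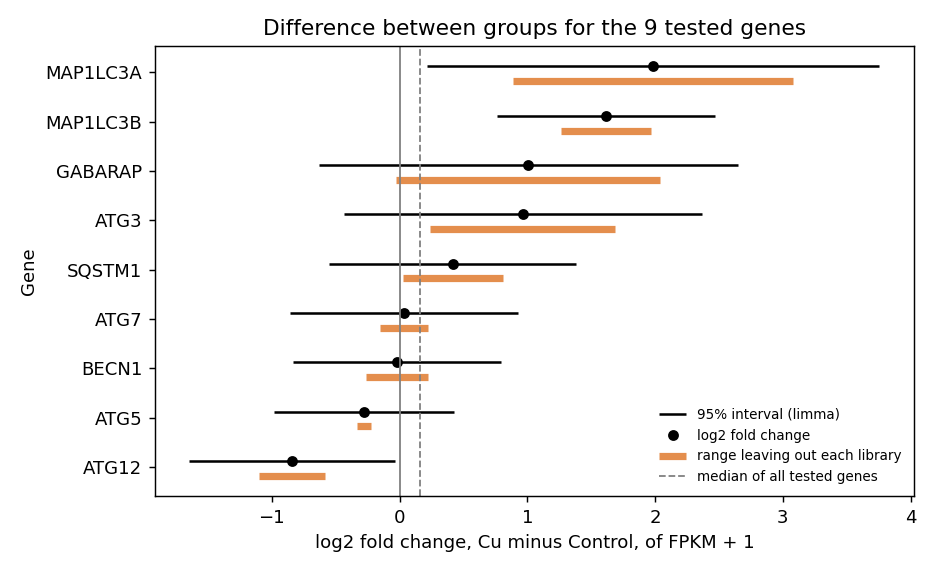
Log2 fold change of FPKM + 1, Cu minus Control, of the 9 tested core genes (points) with limma's 95% interval (black lines) and the range when each library is left out in turn (orange bars). MAP1LC3B, MAP1LC3A and ATG12 have intervals that do not include 0, while GABARAP runs from -0.026 to 2.04 when libraries are left out.

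The wider pathway was described by 85 further genes in 9 lists by role, of which 84 had values and 61 were tested. Of the 61 genes 46 were higher and 15 lower, 16 (26.2%) were separated between the groups with Cu higher, beside 25.4% of all tested genes, and 4 (6.56%) with Cu lower, beside 13.4%. An unadjusted p of 0.05 or less was reached by 3 genes, all higher, beside 5.58% of all tested genes that were higher at this limit, and an adjusted p of 0.05 or less by 0. Their median log2 fold change was 0.23, beside 0.16 for all tested genes, of which 64.3% were higher. TEX264, a receptor for the breakdown of endoplasmic reticulum, had 1.29 and 1.92 FPKM in the Control libraries against 6.26 and 3.91 in those with Cu, a log2 fold change of 1.21 (unadjusted p = 0.022, limma adjusted p = 0.656). PHB2, a prohibitin of the inner mitochondrial membrane that binds LC3 when the outer membrane breaks, had 78.3 and 44.5 FPKM in the Control libraries against 147 and 98.4 in those with Cu, a log2 fold change of 1.01 (unadjusted p = 0.043, limma adjusted p = 0.677). VPS11 is a part of the complexes that tether vesicles to the lysosome. It had 0.34 and 0.55 FPKM in the Control libraries against 1.97 and 1.27 in those with Cu. Its log2 fold change was 0.85 (unadjusted p = 0.045, limma adjusted p = 0.685). The authors' means for Control and Cu, which include libraries not analysed here, were 1.80 and 4.39 FPKM for TEX264. They were 71.05 and 106 FPKM for PHB2 and 0.503 and 1.21 FPKM for VPS11.

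By role, the medians of the log2 fold change lay between 0.032 for the class III phosphatidylinositol 3-kinase complex and 0.40 for mitophagy, the removal of mitochondria. Over all tested genes 64.3% were higher. The 8 mitophagy genes had 6 higher and 2 lower, and the 10 tested cargo receptors 7 higher and 3 lower. The 8 tested genes of fusion with the lysosome had 7 higher and 1 lower, and the 13 tested upstream regulators 10 higher and 3 lower. The 5 tested genes of membrane supply had 3 higher and 2 lower with a median of 0.081. Some regulators, named after their values were seen, were low or at 0 in these oocytes. TFEB, the regulator of lysosome and autophagy genes, did not exceed 0.02 FPKM, while the related TFE3 had 6.26 and 5.76 FPKM in the Control libraries against 14.5 and 7.11 in those with Cu. BCL2, an inhibitor of BECN1, was listed at 0 in all 4 libraries, and its relative BCL2L1 had 72.7 and 58.5 FPKM in the Control libraries against 359 and 71.6 in those with Cu. In TFE3 the Cu values exceeded the Control values, and in BCL2L1 the groups overlapped, with Cu 1 far above the rest.

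**Figure D4:**
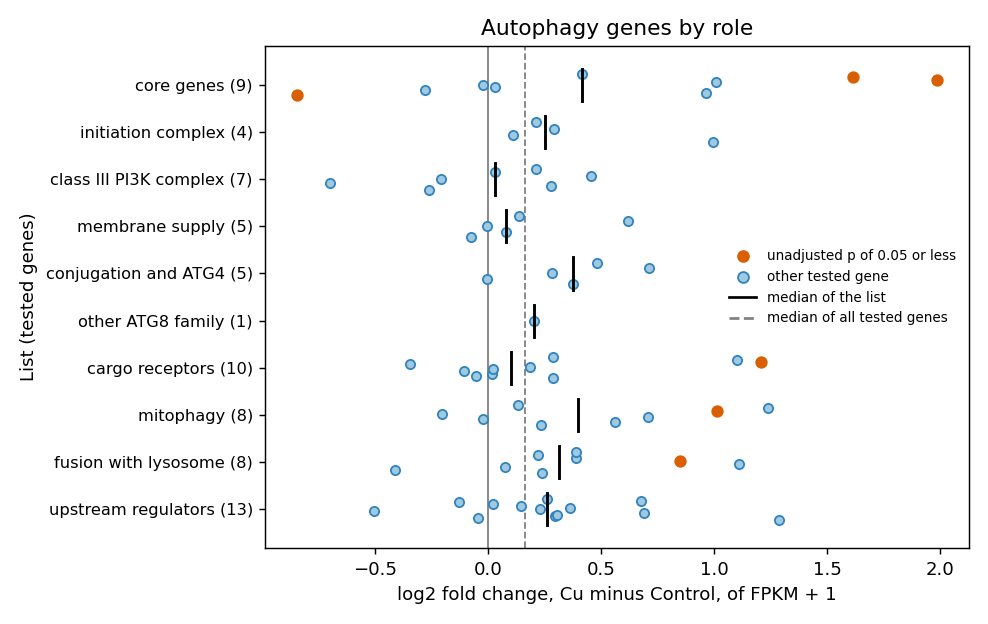
Log2 fold change of FPKM + 1, Cu minus Control, of each tested gene in the core list and the 9 role lists (1 point per gene), with the list median as a black bar and the median of all tested genes, 0.16, as a dashed line. The 6 filled points past an unadjusted p of 0.05 are MAP1LC3A, MAP1LC3B and ATG12 of the core list and TEX264, PHB2 and VPS11, and every list spans values on both sides of the dashed line except the 1-gene list.

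The direction of calls over the table depended on how the libraries were scaled. Of the genes with an unadjusted p of 0.05 or less, 79.6% were higher in Cu in the FPKM as deposited, and 54.0%, 53.9% and 58.0% were higher after upper-quartile scaling, quantile normalization and median-of-ratios scaling. These scalings moved the median of all tested genes from 0.16 to -0.058, -0.068 and -0.042. Under each of the 3 scalings 3 tested members had an unadjusted p of 0.05 or less, and MAP1LC3A, MAP1LC3B and ATG12 kept their directions.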

How the data were processed

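Transcript levels were measured in 4 libraries of porcine metaphase II oocytes, grouped by the sample titles. The authors deposited FPKM with 2 decimals for 16050 genes (of 30684 rows), together with their mean FPKM of each group. According to the paper's methods the reads were filtered with SOAPnuke, mapped with HISAT2 and Bowtie2, and quantified with RSEM. The submitters' processing notes name TopHat2 2.0.13, Cufflinks 2.2.1, Cuffnorm and Cuffdiff instead, with the build Sscrofa11.1. Depth is unknown, so no counting intervals are given, and no count-based test was run.

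From the FPKM, log2(FPKM + 1) was fitted by limma (version 3.58.1, R version 4.3.3, empirical Bayes with a mean-variance trend, two-sided). Genes entered if 2 or more libraries had at least 1 FPKM, which left 8541, with Benjamini-Hochberg adjustment. The fit was also run on simulated data with independent noise, which did not include the difference of Cu 1 from the other libraries. That run therefore does not show how the fit performs on these libraries. The planned test for counts was not used, because the table holds FPKM.

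Named genes are the 10 members, their partners in the role lists and every role-list gene with an unadjusted p of 0.05 or less. For SQSTM1 and MAP1LC3B the 3 pathway genes with the most similar pattern are also named. The members and lists were chosen with earlier results of these data known, and no list was tested as a set. Alternatives were a pseudocount of 0.1, no filter, a filter on every library, 3 scalings, no variance trend and leaving out each library. All 122 identifiers of listed genes matched the RefSeq table of Sscrofa11.1, which gave the coordinates. Sequences were not used here.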

Additional observations from a re-analysis of the deposited data

How the results depend on the processing

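No paired analysis was possible because the groups share only 1 replicate number. The pseudocount of 0.1, the filter on every library and the fit without a variance trend left every count within 1.5 times its value and every tested member in its direction, and so did the restriction to members of at least 10 FPKM, chosen after seeing the data, for the members' median. Without a filter 238 genes were lower at an unadjusted p of 0.05 or less instead of 122, and 1 other pathway gene passed it instead of 3. Upper-quartile scaling, quantile normalization and median-of-ratios scaling gave 303, 298 and 272 lower genes and turned the median of all tested genes to -0.058, -0.068 and -0.042, and ATG7 to -0.20, -0.25 and -0.18. The members' median was 0.15 and 0.17 after upper-quartile and median-of-ratios scaling, and after quantile normalization it lay 0.38 above the median of all tested genes instead of 0.25. With each library left out in turn, which leaves 1 library in a group that is then assumed to vary like the other group, the members' median ranged from 0.027 to 0.81, the median of all tested genes from 0.0023 to 0.31 and their difference from 0.021 to 0.49. The members separated upward numbered 3 to 5, those at an unadjusted p of 0.05 or less 0 to 6 and those at an adjusted p of 0.05 or less 0 to 4. Over all tested genes 112 to 2368 were higher and 15 to 590 lower at an unadjusted p of 0.05 or less, 0 to 1755 passed an adjusted p of 0.05, and of the other pathway genes 0 to 23 passed the unadjusted limit. The highest of these counts came without Cu 3. With 1 library left out, fewer values have to be in order for a gene to count as separated, so any gene reaches this more easily. The share of all tested genes separated in these fits is not given, so the 3 to 5 separated members cannot be set against it. BECN1 then ranged from -0.26 to 0.23, ATG7 from -0.15 to 0.22 and GABARAP from -0.026 to 2.04. The cause of these differences was not tested. Since the depth is unknown, the precision of ULK1 and MAP1LC3A in Control, at about 1 FPKM, is not known.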

Other observations

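The pattern of MAP1LC3B over the 4 libraries was most like that of TEX264 among 69 other tested autophagy genes, with a root mean square difference of 0.28 on the log2(FPKM + 1) scale after each gene's own mean was subtracted, followed by VPS11 with 0.43 and ATG3 with 0.46. For SQSTM1 the nearest genes were WDFY3 with 0.15, ATG4B with 0.15 and BNIP3 with 0.16. The added 1 makes the differences of the weakly expressed BNIP3 and VPS11 smaller, and so bears on their likeness. WDFY3, a large scaffold protein for the breakdown of protein aggregates, had 2.71 and 2.33 FPKM in the Control libraries against 4.77 and 2.2 in those with Cu. BNIP3, a receptor for mitochondria, had 1.05 and 0.13 FPKM in the Control libraries against 2.16 and 0.60 in those with Cu. In both of them Cu 1 was the highest library and the groups overlapped.

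Among the mitophagy genes, named after their values were seen, PINK1, the kinase that marks damaged mitochondria, had 3.24 and 3.92 FPKM in the Control libraries against 16.1 and 5.79 in those with Cu. The log2 fold change was 1.24 (standard error 0.52, unadjusted p = 0.056, limma adjusted p = 0.708). FUNDC1, a receptor in the outer mitochondrial membrane, was more abundant, with 61.8 and 67.6 FPKM in the Control libraries against 46.5 and 67.4 in those with Cu. VAMP8, a fusion protein of the lysosome, had 2.05 and 1.28 FPKM in the Control libraries against 7.36 and 2.89 in those with Cu. Here the log2 difference was 1.11 (standard error 0.48, unadjusted p = 0.061, limma adjusted p = 0.708).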
